A study of Homo sapiens with 12 samples.

Results

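The genes described here encode the protein subunits of mitochondrial respiratory complexes I to IV and of the ATP synthase, complex V, that are carried by nuclear chromosomes. Members were genes whose symbols start with NDUFA, NDUFB, NDUFC, NDUFS, NDUFV, UQCR, ATP5, COX4I, COX5, COX6, COX7 or COX8, together with the SDH subunit genes. Assembly factors (NDUFAF), pseudogenes and antisense genes were left out. The rule uses symbols alone; each gene was then read from its probe set with the highest mean. The rule found 77 of the 19775 genes that had a probe set of exactly 1 symbol, and 71 of them passed the filter (log2 4 or more on at least 3 arrays), among 13130 genes tested. These were 33 genes of complex I, 3 of complex II, 6 of complex III, 12 of complex IV and 17 of complex V.

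Expression was measured on 12 Affymetrix arrays of Sk-hep1, an established human liver adenocarcinoma line from ascites that the labels call endothelial. The cells were kept for 12 or 24 hours either in GM, a growth medium made with DMEM, or in HFM, a high-fat medium whose base was DMEM/F12. Each of the 4 groups had 3 arrays. The basal medium differed along with the fat, so the effects of the 2 cannot be told apart, and no source used here names the fat. Nothing in the labels tells if the replicates came from separate cultures. The p-values therefore reflect the variation among these arrays alone, which may be technical.

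The respiratory chain passes electrons from NADH (complex I) or succinate (complex II) through ubiquinone to complex III, cytochrome c and complex IV, where oxygen is reduced. Complexes I, III and IV move protons out of the matrix, and ATP synthase lets them return through its membrane rotor to make ATP in its F1 head. Most subunits are encoded in the nucleus and imported, a small set of core subunits is encoded by mitochondrial DNA, and the factors NRF1, GABP and the PGC-1 coactivators are known regulators of the nuclear genes. Hepatocytes depend on this chain to oxidise fatty acids.

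Promoter sequence was not used by the rule. RefSeq promoter windows of GRCh38.p14, from 250 bases before to 50 bases after the annotated start, were found for 66 of the 77 members. Both strands were searched for 3 motifs, and a gene was counted if any of its windows held a match. The core of the NRF1 site, GCGCA, any base and GCGC, was present in 16 of the 66 members (24.2%) and in 6.98% of 27305 genes with a window. The ETS core that GABP binds, CCGGAAG, was present in 19 members (28.8%) and 12.2% of genes. The YY1 core, AAGATGGC, was present in 11 members (16.7%) and 3.52% of genes. Of 63 matches in member windows, 0 overlapped a match of another motif. Most members thus lacked each motif. A match is a description of the letters and not a measured binding site.

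Stretches of 150 bases before the start are printed for 6 members whose changes are described below, in the direction of the gene, with motif matches in capitals. SDHA (chr5:218170-218319, + strand) held 3 NRF1 cores and SDHD (chr11:112086723-112086872, + strand) held an NRF1 and an ETS core. UQCRC1 (chr3:48609647-48609796, - strand) and ATP5PO (chr21:33915805-33915954, - strand) each held an NRF1 core. NDUFB7 (chr19:14572067-14572216, - strand) and COX6A1 (chr12:120437963-120438112, + strand) each held an ETS core.
SDHA: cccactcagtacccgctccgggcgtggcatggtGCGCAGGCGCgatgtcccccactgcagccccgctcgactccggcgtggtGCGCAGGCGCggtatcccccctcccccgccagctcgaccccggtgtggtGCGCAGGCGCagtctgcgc
SDHD: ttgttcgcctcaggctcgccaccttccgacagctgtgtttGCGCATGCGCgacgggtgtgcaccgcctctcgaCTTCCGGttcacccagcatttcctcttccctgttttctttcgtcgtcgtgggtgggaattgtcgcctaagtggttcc
UQCRC1: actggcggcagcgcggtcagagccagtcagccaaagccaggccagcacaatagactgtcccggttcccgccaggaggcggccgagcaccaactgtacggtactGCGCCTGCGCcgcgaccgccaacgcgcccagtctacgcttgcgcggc
ATP5PO: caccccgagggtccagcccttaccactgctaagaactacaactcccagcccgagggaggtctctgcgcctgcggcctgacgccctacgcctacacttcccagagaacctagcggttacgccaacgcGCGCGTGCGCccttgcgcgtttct
NDUFB7: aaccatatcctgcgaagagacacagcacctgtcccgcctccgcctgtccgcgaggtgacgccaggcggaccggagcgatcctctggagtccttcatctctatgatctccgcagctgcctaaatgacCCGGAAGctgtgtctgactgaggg
COX6A1: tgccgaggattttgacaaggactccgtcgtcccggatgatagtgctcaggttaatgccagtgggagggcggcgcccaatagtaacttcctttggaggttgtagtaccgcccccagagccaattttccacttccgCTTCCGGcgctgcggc

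The label of the cells was checked against marker genes. Of 10 endothelial markers 5 passed the filter, and CDH5, VWF, TEK, KDR and EMCN were under it on every array. Of 9 hepatocyte markers 4 passed, and ALB, APOA1, APOB, FGB and AHSG were under it on every array. Epithelial markers passed for 5 of 7, with 3 at a mean of log2 10 or more, while EPCAM and CDH1 were under the filter on every array. Leukocyte markers passed for 3 of 5, and PTPRC was under the filter on every array. Mesenchymal markers passed for 4 of 5, with 1 at a mean of log2 10 or more. Mean levels of the lists were 4.05 and 3.62 (GM and HFM at 12 hours) and 3.72 and 3.56 (24 hours) for endothelial genes, 7.95, 7.50, 7.53 and 7.28 for epithelial genes, 4.72, 4.31, 4.13 and 4.02 for leukocyte genes and 7.29, 7.06, 7.01 and 6.90 for mesenchymal genes. Hepatocyte genes averaged 3.86, 3.75, 3.71 and 3.78, so the other 4 lists were lower in HFM at both times and the hepatocyte list at 12 hours. Control probe sets also moved with the groups. For ACTB, a check of RNA integrity, the 12 hour log2 difference between 3' and 5' probe sets was 0.89 ± 0.03 for GM and 0.84 ± 0.13 for HFM (SD, n = 3). The 24 hour values were 1.07 ± 0.05 and 1.58 ± 0.06 (exact two-sided permutation p = 0.10 at 24 hours, the lowest p possible with 3 arrays a group). Hybridisation controls were higher on the 3 GM arrays and on HFM replicate 1 at 12 hours than on the other 8 arrays. The part of these controls and markers in the results below was not tested. In bulk RNA, fewer cells of a type and less RNA per cell cannot be told apart.

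Subunit transcripts gave bright signals. Of the 71 tested members 61 had a mean log2 value of 10 or more over the 12 arrays, although the brightness of different probe sets is not a comparison of amounts. The 6 members under the filter were mostly tissue-restricted isoforms: COX6A2 and COX7A1, the muscle forms, COX6B2, COX7B2 and COX8C, which are best known in testis, and ATP5MF, a small membrane subunit of ATP synthase. Their means lay between 2.23 for COX8C and 3.77 for COX6B2. No value for SDHB is given, because the gene had no probe set of exactly 1 symbol. COXFA4 and COXFA4L2, known earlier as NDUFA4 and NDUFA4L2, fell outside the symbol rule under their current names. COXFA4, a complex IV subunit, was at 11.44 ± 0.03 (SD, n = 3) and 11.37 ± 0.11 in GM and HFM at 12 hours and at 11.44 ± 0.08 and 11.45 ± 0.05 at 24 hours.

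**Figure D1:**
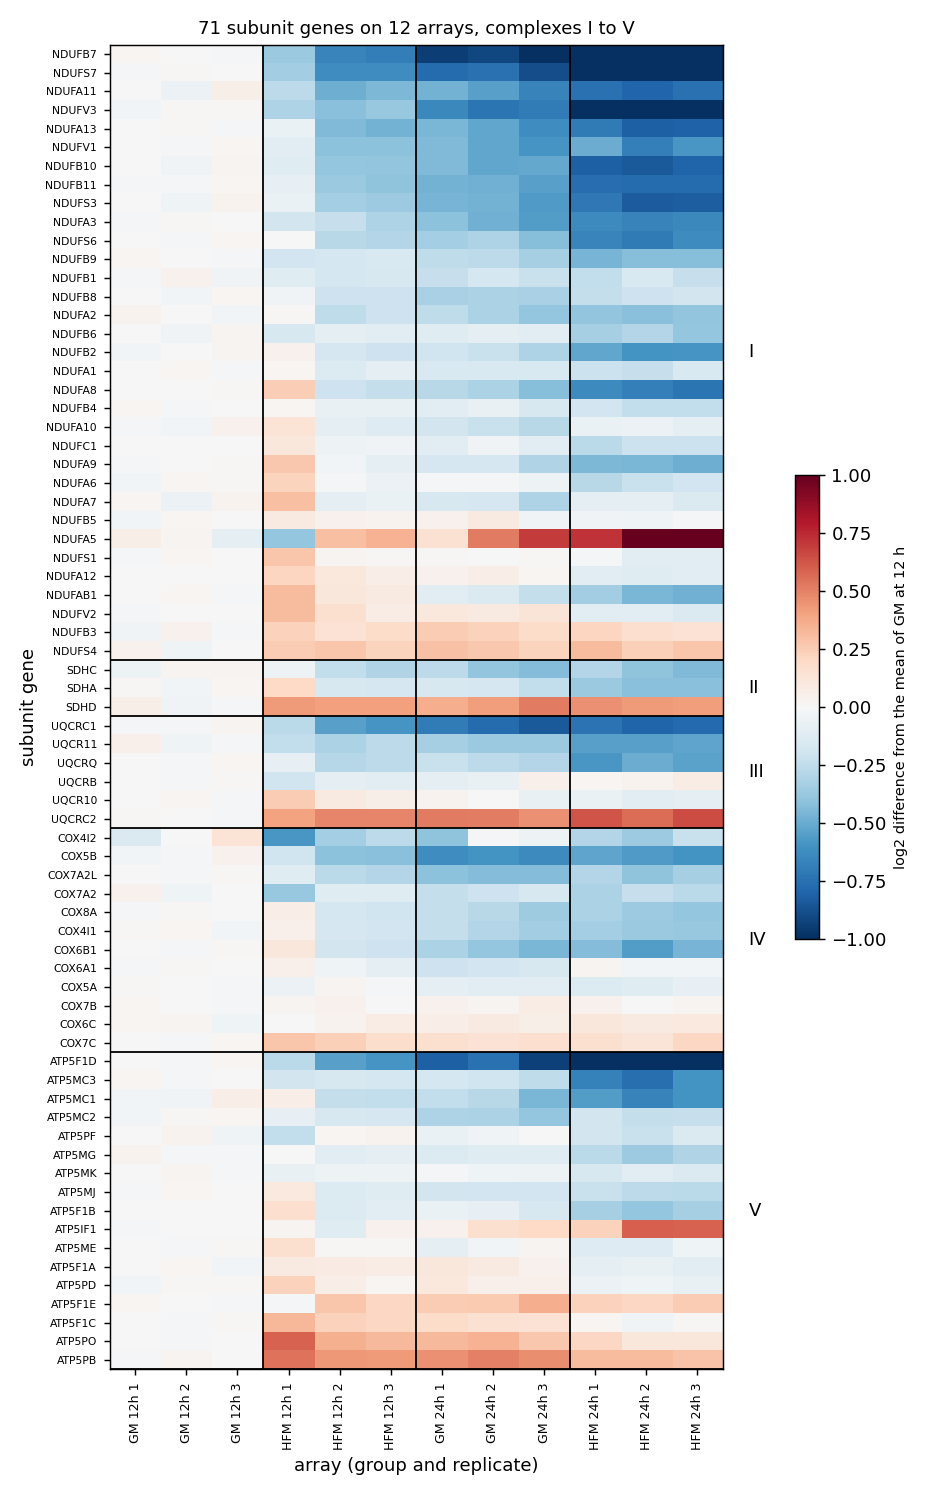
Heat map of the 71 tested subunit genes (rows, grouped by complex I to V) on the 12 arrays (columns, by group and replicate). Colour gives the log2 difference from the gene's mean in GM at 12 hours, cut at 1 either way. NDUFB7, NDUFS7 and ATP5F1D are low in the other groups, while SDHD, UQCRC2, ATP5PB and ATP5PO are high.

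After 12 hours in HFM, subunits of the same complex moved in opposite directions by small amounts. UQCRC2, ATP5PB, ATP5PO and SDHD were higher than in GM by 0.41 to 0.47 on the log2 scale, and NDUFB7, NDUFS7, UQCRC1 and ATP5F1D were lower, with changes of -0.47 to -0.57. Of 71 members 11 were higher, 27 were lower and 33 did not pass the test (limma, Benjamini-Hochberg adjusted p under 0.05 over all genes). That is 53.5% of members called, beside 61.9% of all genes tested, of which 28.9% were higher and 33.0% lower. The median member changed by -0.06 and the median gene by -0.07. Changes of 0.5 or more were found for 2 members, or 2.82%, beside 21.0% of all genes. The 2 groups of arrays did not overlap for 41 members (57.7%) and for 63.6% of genes.

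In complex I, the entry point for NADH, 5 of 33 subunits were higher and 15 lower at 12 hours. NDUFB7, an accessory subunit of the membrane arm, was at 10.62, 10.60 and 10.59 in GM and at 10.23, 9.94 and 9.91 in HFM. All 3 HFM arrays were below all GM arrays, with replicate 1 nearest to them, and the change was -0.57 ± 0.08 (SE, n = 3 per group, adjusted p = 7.8e-05). NDUFS7, a core subunit that holds the last iron-sulfur cluster before ubiquinone, was at 10.69, 10.71 and 10.70 in GM and at 10.35, 10.08 and 10.08 in HFM, again without overlap (-0.53 ± 0.07, adjusted p = 8.6e-05). Of the 5 core subunits tested, 3 were lower (NDUFS3, NDUFS7 and NDUFV1) and NDUFV2, which carries an iron-sulfur cluster beside the NADH site, was higher by 0.18 ± 0.06 (adjusted p = 0.019).

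The largest rise in complex I at 12 hours was that of NDUFS4, an accessory subunit of the peripheral arm whose loss is a known cause of Leigh syndrome. It was at 9.73, 9.65 and 9.69 in GM and at 9.94, 9.97 and 9.91 in HFM, a change of 0.25 ± 0.05 (adjusted p = 7.5e-04). NDUFB3, another membrane arm subunit, was higher by 0.19 ± 0.05 (adjusted p = 0.0052). NDUFV3, NDUFS7 and NDUFB7 thus went down while NDUFS4, NDUFV2, NDUFB3, NDUFA12 and NDUFAB1 went up, within the same enzyme. The rises of NDUFA12 and NDUFAB1 were not called without HFM replicate 1 (0.08 and 0.10, adjusted p = 0.051 and 0.11).

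Complexes II and III each held a pair of partners that were called in opposite directions, less clearly so in complex II. SDHD, one of the anchors that hold succinate dehydrogenase in the membrane, was at 9.91, 9.82 and 9.83 in GM and at 10.28, 10.26 and 10.26 in HFM (0.41 ± 0.05, adjusted p = 3.5e-05). The other anchor, SDHC, was lower (-0.20 ± 0.07, adjusted p = 0.034), with overlapping arrays. Further SDHC probe sets were called lower (-0.16, -0.19 and -0.21), a dimmer one did not pass (-0.10) and another dimmer one was called higher (0.50). The catalytic flavoprotein SDHA was at 10.24, 10.20 and 10.25 in GM and 10.43, 10.07 and 10.06 in HFM (-0.04 ± 0.08, adjusted p = 0.68). In complex III, the core protein UQCRC1 was at 10.77, 10.76 and 10.81 in GM and at 10.51, 10.24 and 10.19 in HFM (-0.47 ± 0.08, adjusted p = 2.4e-04). Its partner UQCRC2 was at 10.82, 10.81 and 10.80 in GM and at 11.21, 11.30 and 11.30 in HFM (0.46 ± 0.05, adjusted p = 9.7e-06). Both core proteins separated the 2 media without overlap, in opposite directions, and a second bright probe set of UQCRC2 changed by 0.50. The smaller subunits UQCR11, UQCRQ and UQCRB were also lower, and UQCR10 did not pass the test.

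In complex IV 1 of 12 subunits was higher and 4 lower at 12 hours. COX5B, a nuclear subunit on the matrix side, was at 11.59, 11.61 and 11.66 in GM and at 11.42, 11.21 and 11.20 in HFM (-0.34 ± 0.06, adjusted p = 4.8e-04). COX7C was higher by 0.23 ± 0.05 (adjusted p = 0.0011), and its 2 other probe sets changed the same way. Among isoform pairs, COX4I1, the common form of the largest nuclear subunit, changed by -0.11 ± 0.07 (adjusted p = 0.17), and the oxygen-responsive form COX4I2, at a mean of 4.72 and close to the filter, was lower (-0.39 ± 0.11, adjusted p = 0.01). COX7A2 and COX7A2L, a relative that takes part in joining complexes III and IV, were lower (-0.21 ± 0.07 and -0.23 ± 0.05, adjusted p = 0.021 and 0.0038). COX6A1 and COX6B1 did not pass the test (adjusted p = 0.69 and 0.3).

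In ATP synthase 3 of 17 subunits were higher and 3 lower. The rises lay in the peripheral stalk, which holds the F1 head still, and in the central stalk. ATP5PB, subunit b, was at 12.05, 12.10 and 12.07 in GM and at 12.62, 12.51 and 12.50 in HFM (0.47 ± 0.05, adjusted p = 6.9e-06). ATP5PO, which caps the stalk on the head, was at 11.35, 11.33 and 11.35 in GM and at 11.93, 11.70 and 11.67 in HFM (0.42 ± 0.07, adjusted p = 2.2e-04). The other stalk subunits ATP5PD and ATP5PF did not pass the test (0.10 ± 0.06 and -0.06 ± 0.07). ATP5F1D, the delta subunit of the rotor shaft, was at 10.56, 10.54 and 10.58 in GM and at 10.29, 10.02 and 9.97 in HFM (-0.47 ± 0.08, adjusted p = 4.1e-04), while the gamma subunit ATP5F1C in the same shaft was higher by 0.26 ± 0.05 (adjusted p = 7.2e-04).

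The first HFM array at 12 hours stood apart from its fellows. It lay above both of them for 55 of 71 members, for 29 of these also above all GM arrays, and outside them by at least 0.2 for 45.1% of members and 45.2% of all genes. Without it 10 members were higher and 39 lower, and 68.4% of all genes were called. The median member then changed by -0.11 and the median gene by -0.09. Adding the hybridisation control class as a term leaves this array alone to stand for HFM. In that fit the median member changed by 0.02 and the median gene by 0.01. The balance between rises and falls at 12 hours thus depended on that array. NDUFB7, NDUFS7, UQCRC1 and ATP5F1D stayed lower and UQCRC2, ATP5PB, ATP5PO and SDHD stayed higher past the threshold under both. With the class term, a fit that sets 1 HFM array against 3 GM arrays, the falls shrank to -0.37, -0.34, -0.28 and -0.27, and the rises were 0.40, 0.55, 0.59 and 0.43. The change of SDHC in that fit was -0.05.

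**Figure D2:**
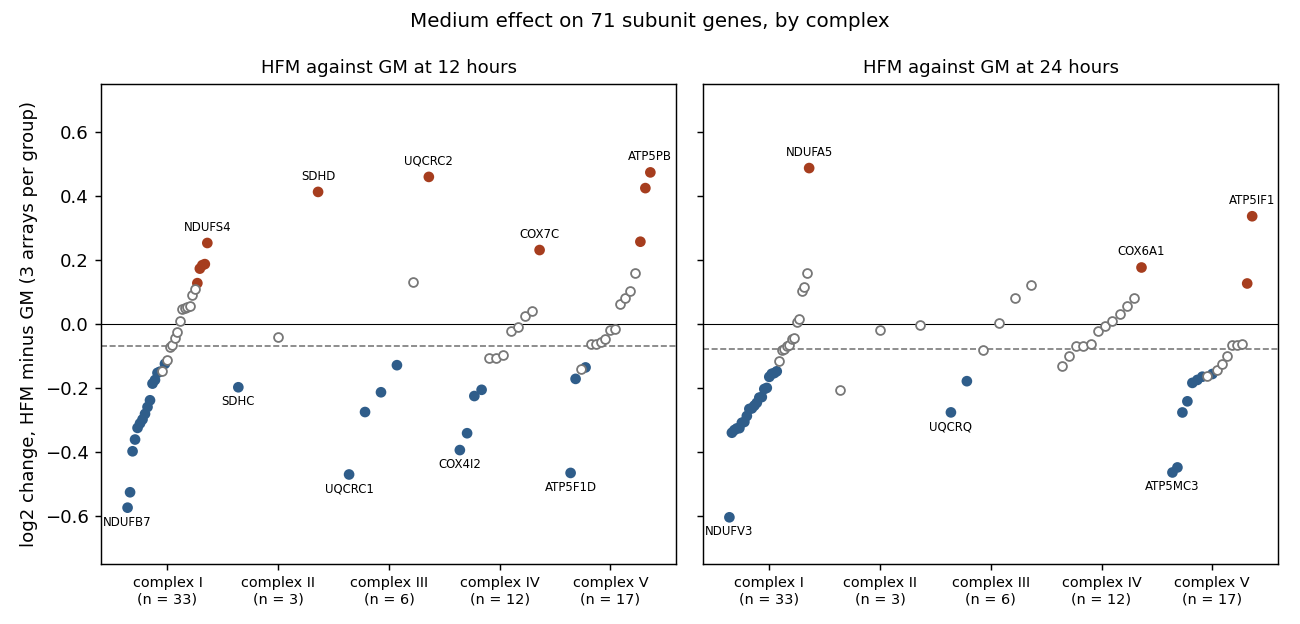
Log2 change, HFM minus GM, of the 71 tested subunit genes at 12 hours (left) and 24 hours (right), sorted within each complex; each point is a gene measured on 3 arrays per group. Filled points passed the test (red higher, blue lower), open points did not, and the dashed line is the median of all genes tested (-0.07 and -0.08).

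At 24 hours the largest called changes were in complexes I and V, where NDUFV3 and ATP5MC3 were lower (-0.60 and -0.46) and NDUFA5 and the inhibitor ATP5IF1 were higher (0.49 and 0.34). In all 4 members were higher, 30 lower and 37 did not pass the test, which is 47.9% called beside 58.1% of all genes (20.6% higher and 37.5% lower). The median member changed by -0.12 and the median gene by -0.08. A change of 0.5 or more was found for 1 member, NDUFV3, or 1.41%, beside 27.1% of genes. Arrays did not overlap for 51 members (71.8%) and 68.7% of genes. The called shares of complex I (63.6%) and V (58.8%) were near that of all genes. By complex, 1 subunit was higher and 20 lower in complex I, 0 and 0 in II, 0 and 2 in III, 1 and 0 in IV and 2 and 8 in V.

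This direction depended on the scale. When every array was shifted to a common median over the genes tested (centred), this moved the median of all genes at 24 hours by 0.18, from -0.08 to 0.10. On that scale 25 members were higher and 8 lower, and 63.1% of all genes were called. Complex I then had 9 higher and 6 lower, II 2 and 0, III 3 and 0, IV 8 and 0, and V 3 and 2. Of the 34 calls 12 remained, all in the same direction: NDUFV3, NDUFB7, NDUFS7, NDUFS6, NDUFB2, NDUFB10, ATP5F1D and ATP5MC3 lower, and NDUFA5, COX6A1, ATP5MC2 and ATP5IF1 higher. Quantile normalization repeated over the arrays, in contrast, kept 33 of the 34 calls, with 5 members higher and 35 lower and a member median of -0.13. At 12 hours centring moved the median of all genes by -0.02.

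**Figure D3:**
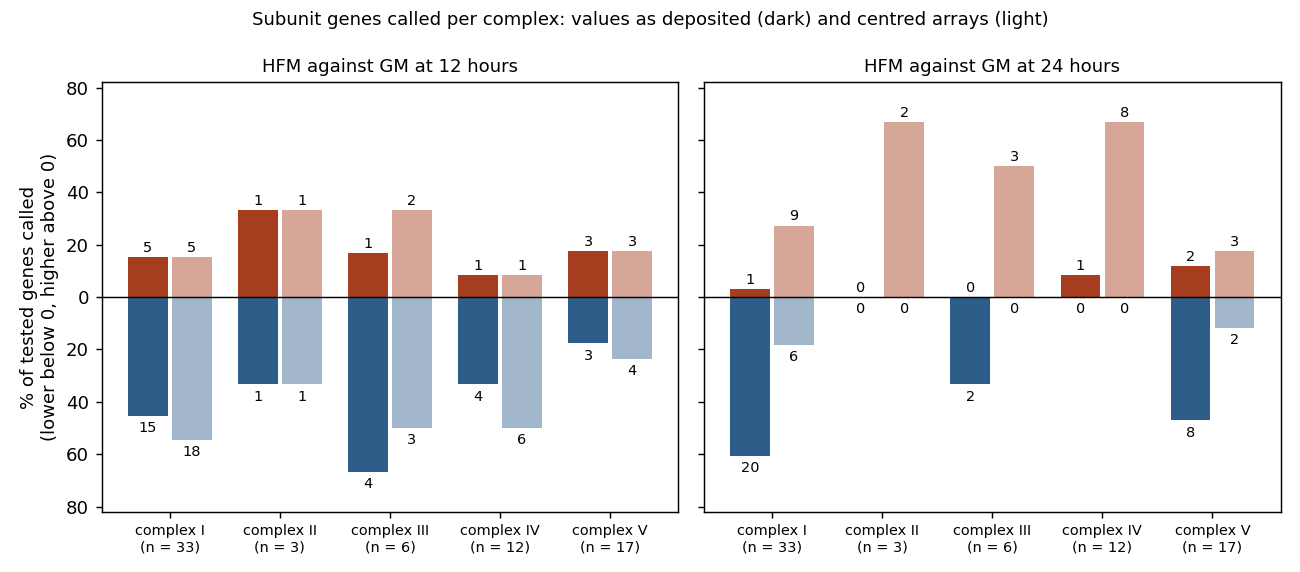
Percentage of tested subunit genes called higher (above 0) and lower (below 0) in HFM, by complex, at 12 and 24 hours. Dark bars use the values as deposited and light bars the arrays centred on the median of the tested genes, with the number of genes at each bar. At 24 hours complex I goes from 1 higher and 20 lower to 9 and 6, and complex IV from 1 higher to 8.

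Among the falls that held at 24 hours, NDUFV3, an accessory subunit of the NADH-binding part of complex I, was at 8.81, 8.73 and 8.76 in GM and at 8.16, 8.20 and 8.13 in HFM. The groups were far apart relative to their spread (-0.60 ± 0.05, adjusted p = 5.9e-07, and -0.43 with centred arrays), and a second probe set of the gene changed by -0.94. ATP5F1D was at 9.74, 9.81 and 9.63 in GM and at 9.35, 9.22 and 9.25 in HFM (-0.45 ± 0.08, adjusted p = 4.4e-04). NDUFB7 was at 9.66, 9.69 and 9.53 in GM and at 9.29, 9.27 and 9.34 in HFM (-0.33 ± 0.08, adjusted p = 0.0033). These 3 genes were lower in HFM at both times. NDUFS7 was lower at both times too (-0.31 ± 0.07 at 24 hours, adjusted p = 0.0032), although its dimmer probe set, at a mean of 4.92, changed by 0.17.

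The genes of the c subunit, which forms the rotor ring of ATP synthase in the membrane, went different ways at 24 hours. ATP5MC1, ATP5MC2 and ATP5MC3 encode the same mature protein with different import sequences. ATP5MC3 was at 12.26, 12.24 and 12.18 in GM and at 11.76, 11.68 and 11.84 in HFM (-0.46 ± 0.05, adjusted p = 7.2e-06), with 2 further probe sets at -0.45 and -0.39. ATP5MC1 was at 10.56, 10.53 and 10.35 in GM and at 10.25, 10.14 and 10.21 in HFM (-0.28 ± 0.09, adjusted p = 0.015), a fall that was not called with centred arrays (-0.10, adjusted p = 0.22). ATP5MC2 was at 12.08, 12.07 and 12.00 in GM and at 12.21, 12.15 and 12.16 in HFM, a rise without overlap (0.13 ± 0.05, adjusted p = 0.038). At 12 hours ATP5MC2 had been lower (-0.14 ± 0.05, adjusted p = 0.025), and as deposited it was the only member called lower and then higher.

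ATP5IF1, which blocks the reverse, ATP-consuming action of the synthase, was at 9.23, 9.34 and 9.38 in GM and at 9.41, 9.78 and 9.77 in HFM at 24 hours (0.34 ± 0.09, adjusted p = 0.0078). HFM replicate 1 was just above the highest GM array. Its other probe sets changed by 0.09 (adjusted p = 0.2) and 0.83 (adjusted p = 1.9e-05). NDUFA5, in the peripheral arm of complex I, was at 10.04, 10.41 and 10.59 in GM and at 10.61, 10.98 and 10.90 in HFM, with a wide spread in both groups (0.49 ± 0.19, adjusted p = 0.044). Its call was lost when quantile normalization was repeated (0.50, adjusted p = 0.053). COX6A1 was the only called subunit of complex IV, at 12.23, 12.25 and 12.28 in GM and at 12.47, 12.41 and 12.41 in HFM (0.18 ± 0.05, adjusted p = 0.0075).

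Other named subunits lost their call with centred arrays. NDUFA8 was lower (-0.34 ± 0.11, adjusted p = 0.015, and -0.16 with adjusted p = 0.11 when centred). UQCRQ, which lies beside the ubiquinone site of complex III, was lower (-0.28 ± 0.06, adjusted p = 0.0014) and UQCR11 was lower (-0.18 ± 0.05, adjusted p = 0.0046), against -0.10 and -0.00 when centred. ATP5PB was lower (-0.17 ± 0.05, adjusted p = 0.01) and at 0.01 when centred.

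Several subunits called at 12 hours did not pass the test at 24 hours as deposited, but did with centred arrays. SDHD was at 10.22, 10.27 and 10.37 in GM and at 10.31, 10.28 and 10.27 in HFM (-0.00 ± 0.05, adjusted p = 0.97, and 0.18 with adjusted p = 0.014 when centred). UQCRC1 was at 10.08, 10.01 and 9.94 in GM and at 10.04, 9.98 and 10.00 in HFM (0.00 ± 0.08, adjusted p = 0.99, and 0.18 with adjusted p = 0.013 when centred). The arrays of both genes overlapped between the media as deposited. UQCRC2 changed by 0.12 ± 0.05 (adjusted p = 0.051, centred 0.30 with 9.4e-04) and COX5B by 0.05 ± 0.06 (adjusted p = 0.48, centred 0.23 with 4.7e-04). COX7A2L, COX7C and SDHC, at 0.08, 0.01 and -0.02, were called higher when centred (0.26, 0.19 and 0.16), while COX4I2 and COX7A2 passed on neither scale. Of those not called at 12 hours, SDHA changed by -0.21 ± 0.08 (adjusted p = 0.054, centred -0.03), COX6B1 by -0.10 ± 0.08 and COX4I1 by -0.06 ± 0.07, and of these COX4I1 was called higher when centred (0.11, adjusted p = 0.047).

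The comparisons at 12 and at 24 hours share no array, so their calls can be crossed. Of 71 members 16 (22.5%) were lower at both times, beside 16.2% of all genes, and 0 were higher at both, beside 11.1%. A further 5 (7.04%) went from higher to lower, namely ATP5F1C, ATP5PB, NDUFA12, NDUFAB1 and NDUFV2, beside 9.19% of genes. Of these, NDUFA12 and NDUFAB1 were not called at 12 hours without HFM replicate 1. With centred arrays this pattern differed: 8 members were lower at both times, 5 were higher at both (COX7C, NDUFB3, NDUFS4, SDHD and UQCRC2), 9 went from lower to higher and 0 from higher to lower. With repeated quantile normalization 16 were lower at both, 0 higher at both and 5 went from higher to lower. Shares of all genes were counted for these crossed calls only as deposited. As deposited, neither comparison called 21 members (29.6%, beside 19.5% of genes), among them 6 of the 12 complex IV subunits tested.

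Whether the medium effect differed between the times was tested directly. It did for 26 members (36.6%, beside 52.8% of all genes), with 8 higher and 18 lower at 24 than at 12 hours (19.4% and 33.4% of genes). The difference reached 0.5 for 2 members (2.82%), both in the peripheral stalk of ATP synthase, beside 30.6% of genes. The largest differences were those of ATP5PB (-0.64 ± 0.07, adjusted p = 1.0e-05), ATP5PO (-0.59 ± 0.09, adjusted p = 2.8e-04) and UQCRC1 (0.47 ± 0.11, adjusted p = 0.0029). With centred arrays 33 were higher and 6 lower, and 62.5% of all genes were called. On that scale 14 of the 26 remained called in the same direction, ATP5PB, ATP5PO and UQCRC1 among them. Without HFM replicate 1 at 12 hours 17 were higher and 20 lower, and 62.1% of all genes were called. With the hybridisation class term the median difference was -0.18 for members and -0.12 for all genes.

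**Figure D4:**
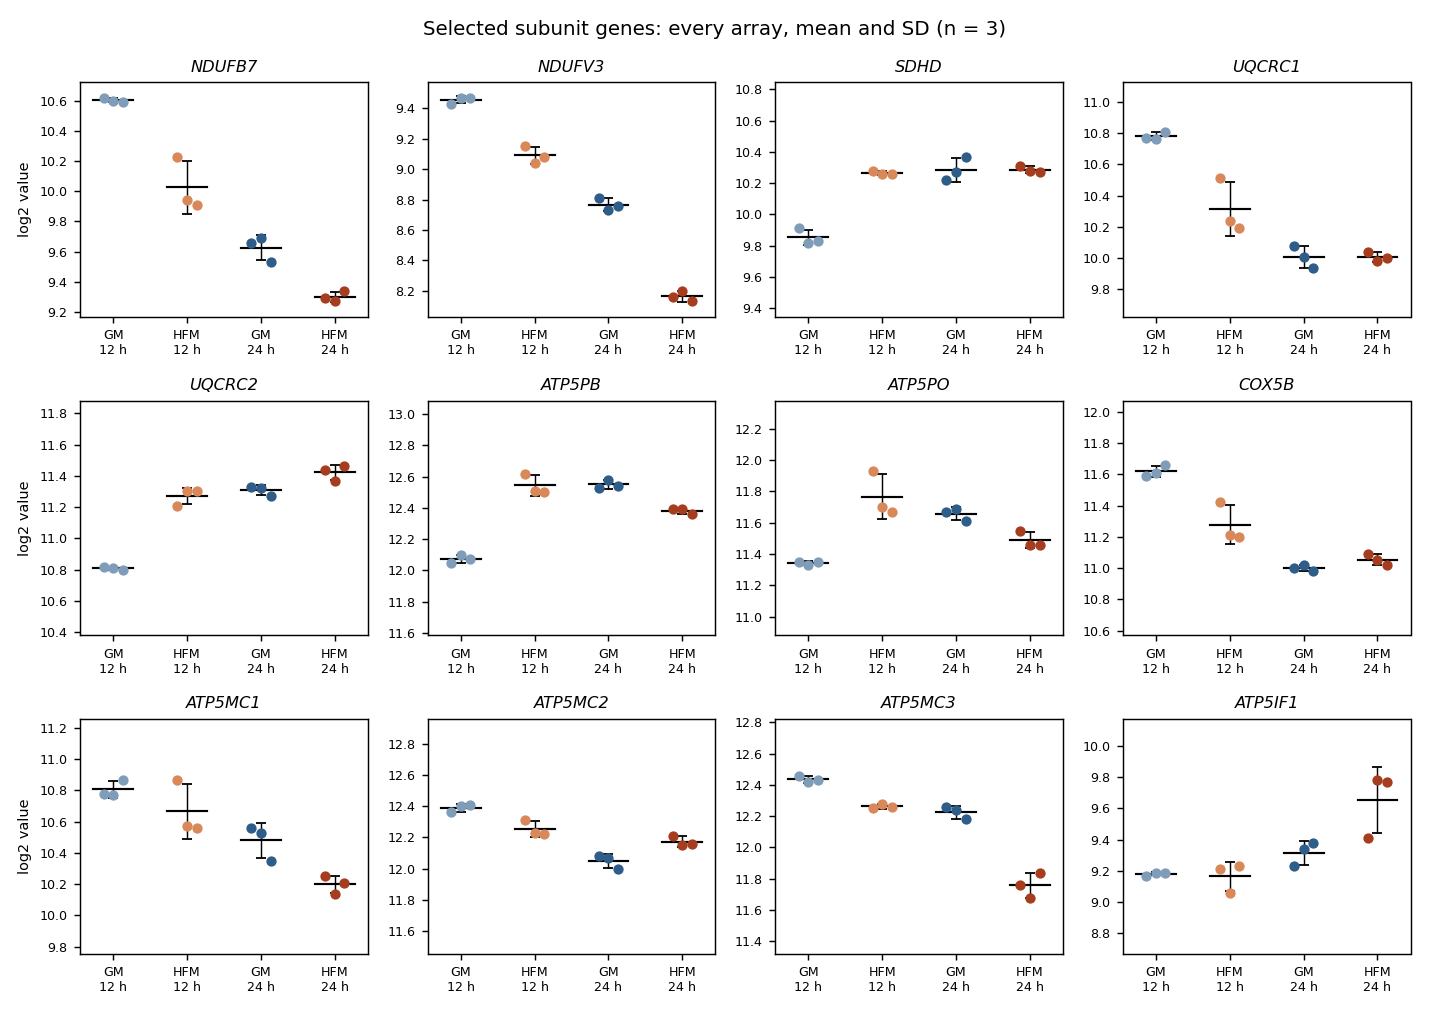
Log2 values of 12 subunit genes on every array (points), with the group mean (line) and SD (bar, n = 3), for GM and HFM at 12 and 24 hours. SDHD and UQCRC1 separate the media at 12 hours and overlap at 24 hours, and of the 3 c subunit genes ATP5MC2 is higher in HFM at 24 hours while ATP5MC1 and ATP5MC3 are lower.

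The 2 times were also compared within each medium. In GM, 24 against 12 hours, 10 members were higher and 41 lower (71.8% called, beside 69.9% of all genes), with a median of -0.18 beside -0.12. Of all genes 29.4% were higher and 40.5% lower. Changes of 0.5 or more were found for 11 members (15.5%, beside 32.0% of genes), and arrays did not overlap for 62 members (87.3%, beside 78.9%). In HFM 4 were higher and 47 lower (71.8%, beside 63.1%), with a median of -0.22 beside -0.12. With centred arrays 21 were higher and 19 lower, and 68.0% of all genes were called. As deposited 20.1% of all genes were higher and 43.1% lower. Changes of 0.5 or more again numbered 11 (15.5%, beside 31.6% of genes), and arrays did not overlap for 57 members (80.3%, beside 65.9%). Complex I had 3 higher and 23 lower of 33 in GM, and complex V 4 and 6 of 17. The 12 hour GM arrays were all of the high hybridisation class and the 24 hour GM arrays all of the low class. With a class term, which rests on HFM replicate 1 at 12 hours, 15 members were higher and 21 lower in GM, beside 56.3% of all genes called. The member median was -0.04 and 28 of the 51 calls were shared, so time and this class could not be well separated.

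The comparison of times in GM shares its 12 hour arrays with the medium comparison at 12 hours, so the values are only set side by side. NDUFB7 gave -0.57 for HFM at 12 hours and -0.97 ± 0.08 for 24 hours in GM. NDUFV3 gave -0.36 and -0.69 ± 0.05, UQCRC1 -0.47 and -0.77 ± 0.08, and COX5B -0.34 and -0.62 ± 0.06. UQCRC2 gave 0.46 and 0.50 ± 0.05, SDHD 0.41 and 0.44 ± 0.05, and ATP5PB 0.47 and 0.48 ± 0.05. For each of these 7 genes the 12 hour GM arrays lay apart from the 9 other arrays.

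The core subunits encoded by mitochondrial DNA are a separate list, drawn up after the files had been seen. Of 13 genes 7 were tested. At 12 hours 0 were called, beside 61.9% of all genes. At 24 hours 4 were higher in HFM and 0 lower. That is 57.1% called, near the 58.1% of all genes, of which 20.6% were higher and 37.5% lower. The median at 24 hours was 0.26, beside -0.12 for the nuclear-encoded members. ND4, a proton-pumping subunit of complex I, was at 12.92, 12.95 and 13.04 in GM and at 13.57, 13.70 and 13.58 in HFM (0.64 ± 0.10, adjusted p = 1.3e-04), and its second probe set changed by 0.78. At 12 hours that second probe set was already called higher (0.17, adjusted p = 0.0086). ND2, its neighbour in the membrane arm, was higher by 0.62 ± 0.06 (adjusted p = 3.6e-06). COX1, the catalytic subunit of complex IV, was higher by 0.46 ± 0.05 (adjusted p = 1.3e-05) and ATP6, the stator channel of ATP synthase, by 0.26 ± 0.06 (adjusted p = 0.0035). ND6, COX2 and COX3 changed by -0.03, 0.05 and 0.08 and did not pass the test as deposited. With centred arrays COX2 was called higher (0.23, adjusted p = 9.0e-04), and ND6 and COX3 were not called. The 4 rises as deposited were called with centred arrays too, and their medium effects differed between the times (0.63, 0.67, 0.43 and 0.30 for ND2, ND4, COX1 and ATP6). The difference between nuclear-encoded and mitochondrially encoded subunits was not tested as such.

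Among regulators of respiratory genes NRF1, PPARGC1B and NRIP1 were lower in HFM at 24 hours by more than any subunit gene. In all 6 of 23 were higher and 13 lower (82.6% called, beside 58.1% of all genes), with a median of -0.25. At 12 hours 12 were higher and 6 lower (78.3% called, beside 61.9% of all genes). NRF1, the factor whose core sites were counted above, was at 6.44, 6.48 and 6.51 in GM and at 4.84, 4.79 and 5.04 in HFM at 24 hours (-1.58 ± 0.09, adjusted p = 3.3e-08). Of its 4 other probe sets 3 were lower (-0.42 to -0.72) and 1 changed by 0.06. At 12 hours NRF1 did not pass the test (-0.19 ± 0.09, adjusted p = 0.089, but -0.21 with adjusted p = 0.026 when centred). Of the members with an NRF1 core in their promoter 15 were tested, and at 24 hours 0 were higher and 7 lower (median -0.16), beside 4 and 19 of 47 members whose window lacked it (median -0.08) and 37.5% of all genes lower. At 12 hours the NRF1 core members had 4 higher and 4 lower (median -0.04), beside 7 and 17 of the 47 without it (median -0.07). Of all genes 28.9% were higher and 33.0% lower at 12 hours. Members with the YY1 core had 0 higher and 5 lower of 11 at 24 hours (median -0.16), beside 4 and 21 of 51 without it (median -0.10). Those with the ETS core had 1 and 7 of 19 (median -0.10), beside 3 and 19 of 43 without it (median -0.12).

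The coactivator PPARGC1B was lower at 24 hours (-1.35 ± 0.08, adjusted p = 4.8e-08), with 1 of its 3 other probe sets called lower too (-0.54), and PPARGC1A was under the filter in every group, with means of 2.64 to 2.86. TFAM, which packages and transcribes mitochondrial DNA, was at 9.91, 9.97 and 9.95 in GM and at 9.44, 9.52 and 9.50 in HFM (-0.46 ± 0.05, adjusted p = 4.0e-06), and its 3 other probe sets were lower (-0.92 to -1.07). TFAM was thus lower in HFM while 4 mitochondrially encoded transcripts were higher. GABPA was higher by 0.98 ± 0.14 at 12 hours and 0.47 ± 0.14 at 24 hours (adjusted p = 1.1e-04 and 0.012), with a dimmer probe set at -0.62 at 24 hours. ESRRA was lower at 12 hours (-0.51 ± 0.05, adjusted p = 9.2e-06). It did not pass at 24 hours as deposited (0.07 ± 0.05), but was called higher when centred (0.25, adjusted p = 0.002). Its dimmer probe set, at a mean of 5.84, did not pass at 12 hours (-0.06, adjusted p = 0.62). The corepressor NRIP1 was lower at 24 hours (-1.55 ± 0.07), and SIRT1, a deacetylase, and MYC were higher by 0.74 ± 0.14 and 0.70 ± 0.06.

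**Figure D5:**
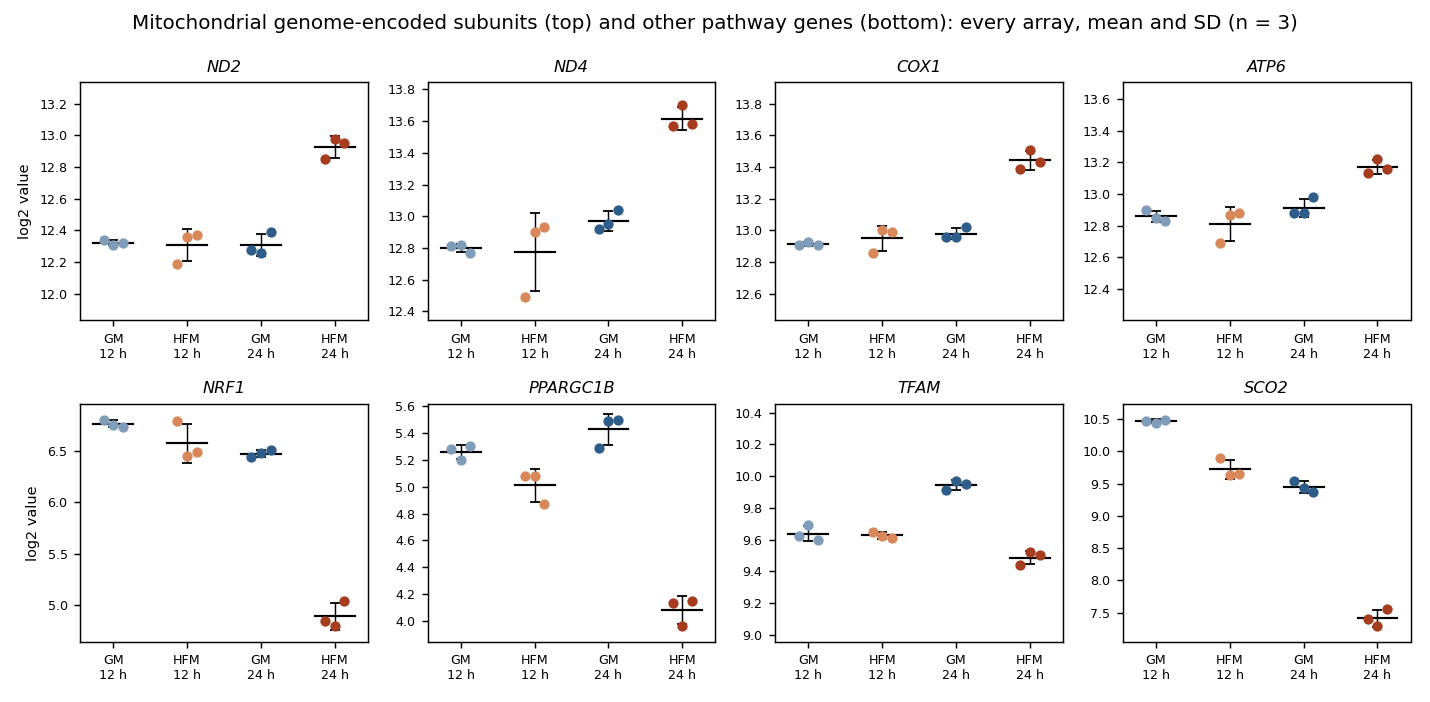
Log2 values on every array (points), with the group mean (line) and SD (bar, n = 3), of 4 subunits encoded by mitochondrial DNA (top) and of NRF1, PPARGC1B, TFAM and SCO2 (bottom). The 3 HFM arrays at 24 hours lie above all others for the mitochondrial genes and below all others for the lower panels.

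Among 49 assembly factors 5 were higher and 24 lower at 24 hours (59.2% called, near the 58.1% of all genes, median -0.16), or 14 and 17 with centred arrays. SCO2, a copper carrier for complex IV, was at 9.54, 9.43 and 9.37 in GM and at 7.40, 7.29 and 7.55 in HFM (-2.04 ± 0.08, adjusted p = 2.5e-09), after -0.74 ± 0.08 at 12 hours. COA7, another factor of complex IV, changed by -1.46 ± 0.11 and its second probe set by -2.29. COX17, the chaperone that hands copper to SCO2, was under log2 4 on the other 9 arrays and at 5.61, 5.50 and 5.90 in HFM at 24 hours. It passed the filter only through those 3 arrays, so its level is given without a fold or test. The counts above still include COX17, among the 5 higher as deposited and the 14 higher with centred arrays. SDHAF4, a factor for SDHA, was higher by 0.53 ± 0.07. The 12 nuclear-encoded subunits of complex IV tested changed by between -0.13 and 0.18 at 24 hours as deposited, with COX6A1 at 0.36 when centred.

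Of 28 genes for electron carriers and nucleotide transport 5 were higher and 11 lower at 24 hours (57.1% called, again near that of all genes, median -0.11). Enzymes of ubiquinone synthesis went both ways: PDSS1 and COQ5 were lower (-0.76 ± 0.09 and -0.51 ± 0.06), and COQ4 and PDSS2 were higher by 0.91 ± 0.07 and 0.54 ± 0.05. For COQ4, PDSS1 and PDSS2 another probe set was called in the opposite direction (-0.31, 0.37 and -0.55). Of 12 citric acid cycle genes, which supply the chain with NADH and succinate, 1 was higher and 3 lower (33.3% called, beside 58.1% of all genes). Among them were IDH2 (0.35 ± 0.12, with a dimmer probe set at -0.48), IDH3A (-0.41 ± 0.06) and DLD (-0.21 ± 0.07, not called when centred).

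Mitochondrial ribosomal proteins and proteasome subunits are given for comparison at 24 hours, when 20.6% of all genes were higher and 37.5% lower. With centred arrays 63.1% of all genes were called. Of 75 mitochondrial ribosomal proteins 0 were higher and 60 lower (median -0.37), or 6 and 48 with centred arrays. Of 34 proteasome subunits 1 was higher and 30 lower (median -0.34), or 1 and 20 when centred. The respiratory subunits had 4 higher and 30 lower of 71, or 25 and 8 when centred; the difference between these groups was not tested.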

How the data were processed

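Log2 values per probe set of 12 arrays were used as deposited by the authors, who, per the submitters' processing notes, used GCRMA; no version is named. The platform annotation gave exactly 1 symbol for 41097 of 54675 probe sets, several for 1801 and none for 11777. Each gene was taken from its brightest probe set of 1 symbol and kept if 3 arrays or more reached log2 4. R 4.3.3 with limma 3.58.1 fitted 4 group means over 13130 genes, with Benjamini-Hochberg adjustment over all of them and a threshold of 0.05. The 4 groups shared 1 estimate of the spread per gene, so each comparison also rests on the spread of the other arrays. Errors beside log2 changes are standard errors. The number of arrays limits the precision.

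The member rule uses symbols only, but it, the lists and the tests were chosen with earlier results of these data known. Named members were, in each complex and medium comparison, the 2 called with the largest rise and the 2 with the largest fall, the SDH genes, isoform groups and ATP5IF1, and the 3 with the largest difference between times. In each other list they were the 2 largest called rises and falls at 24 hours, with PPARGC1A, PPARGC1B, NRF1, GABPA, ESRRA and TFAM. Further members and the mitochondrially encoded genes were named after their values were seen. Alternatives changed the filter, the probe set, the scale, the variance model, the arrays in the fit, a replicate block and a term for hybridisation control class. Same-numbered arrays did not deviate together in all groups (7 of 18 pairs correlated over 0.1), so the numbers were not used as pairs. Between GM at 24 hours and HFM at 12 hours the correlations were 0.39, -0.17 and 0.42 for replicates 1, 2 and 3. Plots used Python 3.11.15 and matplotlib 3.10.9. Protein sequences were not used here.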

Additional observations from a re-analysis of the deposited data

Results flagged for a closer look

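The effect of the medium differed between 12 and 24 hours for 26 subunit genes (36.6%, beside 52.8% of all genes). The difference itself was tested (limma, Benjamini-Hochberg adjusted). Of the 26, the named ones are given here as the effect at 24 hours minus that at 12 hours on the log2 scale. In ATP synthase it was -0.64 for ATP5PB, -0.59 for ATP5PO, -0.29 for ATP5MC3, 0.26 for ATP5MC2 and 0.35 for ATP5IF1. In complexes II and III it was -0.41 for SDHD, 0.47 for UQCRC1 and -0.34 for UQCRC2. In complex IV it was 0.40 for COX5B, 0.20 for COX6A1, 0.31 for COX7A2L and -0.22 for COX7C. In complex I it was -0.23 for NDUFB3, -0.24 for NDUFS4 and -0.24 for NDUFV3. With centred arrays ATP5PB, ATP5PO, SDHD, UQCRC1, COX5B, COX6A1, COX7A2L, ATP5MC2 and ATP5IF1 were still called in the same direction, and the other 6 named here were not.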

How the results depend on the processing

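Counts of called members stayed within 1.5 times the reported ones under every alternative run except 1, the hybridisation class term, under which 44 members were called in the difference between times. Leaving out 1 array at a time gave 29 to 49 members at 12 hours, 24 to 34 at 24 hours, 19 to 37 in the difference, 42 to 46 for time in GM and 46 to 50 for time in HFM. In that order, the called shares of all genes were 54.6% to 68.4%, 52.7% to 55.0%, 47.3% to 62.1%, 64.1% to 66.4% and 58.0% to 64.4%. With the replicate number as a block the counts were 38, 36, 25, 50 and 50, although the numbers did not pair the arrays in all groups (correlations from -0.17 to 0.42). Signs turned for some single values, and the cause was not tested. Those listed belong to named members and were called as deposited, under the alternative or both. Values called in neither fit are left out, such as ATP5PO (-0.16, centred 0.02) and COX4I2 (-0.13, centred 0.05) at 24 hours. Centring turned ATP5PB (0.01), COX4I1 (0.11), NDUFB3 (0.13), SDHC (0.16) and SDHD (0.18) at 24 hours, and, for time in HFM, ATP5MC2 (0.14), ATP5PB (0.06), COX7A2L (0.10), COX7C (0.15), NDUFB3 (0.21) and SDHC (0.04). Without _x_at and _s_at probe sets, ATP5IF1 (0.54) and SDHC (0.50) turned at 12 hours, COX4I1 (0.30), NDUFS7 (0.17) and SDHC (0.33) at 24 hours, SDHC (0.58) for time in GM, and COX4I1 (0.14), SDHC (0.41) and UQCRC2 (-0.01) for time in HFM. The mean of all probe sets turned ATP5IF1 at 12 hours (0.20). The class term turned NDUFA8 (0.25) and SDHA (0.20) at 12 hours, and NDUFA5 (-0.26), NDUFA8 (0.13) and SDHA (0.17) for time in GM.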

Other observations

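Probe sets of the same subunit gene did not always move together. At 12 hours 18 called members had another tested probe set; for 14 of them another was called the same way and for 3 (NDUFB6, NDUFB8 and SDHC) one was called the opposite way. At 24 hours 16 called members had another tested probe set, with 12 called the same way and 5 (ATP5F1C, ATP5MG, NDUFA11, NDUFB6 and NDUFS7) the opposite way. Some dim probe sets moved far from the brightest one of their gene in HFM at 24 hours. One of NDUFB4, at a mean log2 value of 4.48, rose while the brightest changed by -0.12 (not called). It may have passed the filter only through the arrays where it was high, so no fold or test is given. One of ATP5F1C, at 6.51, changed by 1.73 against -0.16, and by 2.16 against 0.26 at 12 hours. One of NDUFB8, at 6.45, changed by 1.97 against 0.11 (not called). One of NDUFB6 had a mean of 2.84, under log2 4, and can have passed the filter only through the arrays where it was high. Its calls are counted above among the opposite ones at both times, but they are no support and no fold is given. These genes were chosen after their values were seen.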
